A study of Mus musculus with 24 samples.

Results

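Liver RNA of old and young mice was compared in the early night, at 4 groups of libraries: young and old at zeitgeber time 14 (ZT14) and at ZT18, with 2 libraries in each group. Zeitgeber time counts hours from lights on, and mice are active in the dark. Both times are called the early night here, although ZT18 lies nearer the middle of a usual dark phase. The samples were chosen by their labels alone, and they make up 8 of the 24 libraries of the series. All came from frozen liver of wild-type C57BL/6 mice, labelled as about 4 months old (young) or about 19 months old (old), and the remaining 16 libraries cover the same ages at ZT2, ZT6, ZT10 and ZT22. The labels give no sex, do not say whether the 2 libraries of a group came from separate animals, and do not say what a replicate number marks. The p-values therefore measure the spread between these libraries, which may be technical. The libraries were made by oligo-dT selection and read in a strand-specific way, as single reads of 50 bases.

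Over the day the liver prepares for feeding and fasting. In mice feeding starts with the night. Hepatocytes then turn from oxidising fat and making glucose towards storing nutrients and towards making and secreting protein in the endoplasmic reticulum (ER). Secretory load is met by the unfolded protein response, in which the sensors ATF6, IRE1 and PERK raise the chaperones, disulfide isomerases and degradation factors of the ER. In livers of ageing animals, immune cells and their products are among the changes most often described.

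The 8 libraries held 10.1 to 13.7 (in units of 1e+06) reads, estimated from the mapped bases, and 15989 to 16690 genes above 0. Values are TPM, each transcript's share of a library after correction for its length, divided by a scaling factor for each library so that the median gene sits at the same level in all libraries ("scaled TPM"). Pearson's r between the 2 libraries of a group was 0.938 to 0.961 across genes on the log2 scale. Hepatocyte markers were high in every library: the 10 markers summed to 107579 to 117796 scaled TPM in young and 91327 to 118883 in old libraries. Young ZT18 replicate 2 also carried transcripts of pancreatic acinar cells, with a sum of 5637 scaled TPM over 20 acinar genes against 18.1 to 68.4 in the other 7. Old ZT14 replicate 1 had 3.42% of its TPM in mitochondrially encoded RNA. Old ZT14 replicate 2 had 8.74%, and the other 6 had 13.1% to 16.4%. Most counts and list medians are therefore also given without young ZT18 replicate 2 and old ZT14 replicate 1, called the 2 doubted libraries below.

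Immunoglobulin transcripts were higher in old liver in the early night. Old and young libraries were compared over both times in a single fit, with time as a covariate, by limma's moderated test on log2(scaled TPM + 0.5) with Benjamini-Hochberg adjustment over 12155 genes and a threshold of 0.05. In that test 5 genes rose with age, which is 0.0411% of those tested, and 0 genes fell (0%). Without young ZT14 replicate 2 or without young ZT18 replicate 2 the count was 8 in either case. At an unadjusted p under 0.05, 390 genes were higher (3.21%) and 476 were lower (3.92%). The median difference over all genes was -0.01 (log2), with 48.8% of genes positive. All 4 old libraries lay on the same side of the young ones, within each time, for 449 genes on the high side (3.69%) and 497 on the low side (4.09%).

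Ighm encodes the heavy chain of IgM. Its level in young liver was 2.27 and 4.11 scaled TPM at ZT14 and 6.10 and 6.61 at ZT18, and in old liver 25.0 and 54.4 at ZT14 and 38.4 and 56.0 at ZT18. Every old library lay above every young one, and the log2 difference was 3.08 ± 0.29 (SE; limma, adjusted p = 0.00842). Igkc encodes the constant part of the kappa light chain. It measured 7.89, 17.2, 19.7 and 28.4 scaled TPM in the young libraries, and 91.9, 150.4, 114 and 121 in the old ones. Again the ages did not overlap, and Igkc rose by 2.78 ± 0.31 (log2; limma, adjusted p = 0.0269). Leaving out 1 library at a time moved the adjusted p of Igkc between 0.0157 and 0.121, and the call was lost without young ZT18 replicate 1 or without any 1 of the 4 old libraries.

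Igkv5-39, a kappa variable segment at chr6:69900424-69900710 (minus strand), was listed at 0 in 3 young libraries and at 0.420 in young ZT18 replicate 2. The old libraries had 5.15, 10.01, 7.05 and 13.7 scaled TPM, and the difference of 3.94 ± 0.32 on this log2 scale depends on the added 0.5 (limma, adjusted p = 0.00455). A second variable segment, Igkv1-117 (chr6:68121091-68121827, plus strand), was listed at 0 in all 4 young libraries and at 3.17, 4.00, 3.38 and 3.74 in the old ones (limma, adjusted p = 0.00351). Igkv1-117 and the fifth called gene, the clone-named 2610305D13Rik on chromosome 4, fall outside the rule for naming genes and are named because the list is short, after their values were seen. The level of 2610305D13Rik was 0.398 to 0.836 scaled TPM in young and 3.70 to 6.40 in old libraries (2.23 ± 0.20, limma adjusted p = 0.00645). Variable segments share sequence with many near-identical copies, so how reads were divided among them is uncertain.

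The rise of Ighm, Igkv5-39 and Igkv1-117 passed the threshold also without the 2 doubted libraries. Their adjusted p-values in limma were then 0.0321, 0.00608 and 0.0168, while Igkc and 2610305D13Rik were each at 0.0677. That fit of 6 libraries tested 12088 genes and called 6 higher (0.0496%) and 4 lower (0.0331%), and 3 of the calls were shared with the fit of 8. At an unadjusted p under 0.05 it had 665 genes higher (5.5%) and 922 lower (7.63%). Among the calls gained without these libraries was the lambda segment Iglv1, listed at 0 in all young libraries and at 1.13, 6.43, 4.99 and 5.85 in the old ones (limma, adjusted p = 0.00608 in the fit of 6 libraries). Another was Igkv3-2, listed at 0 in all young libraries and at 0.951, 12.8, 12.2 and 23.1 in the old ones (limma, adjusted p = 0.00492 in that fit). In both genes old ZT14 replicate 1 was the lowest of the old libraries.

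**Figure D1:**
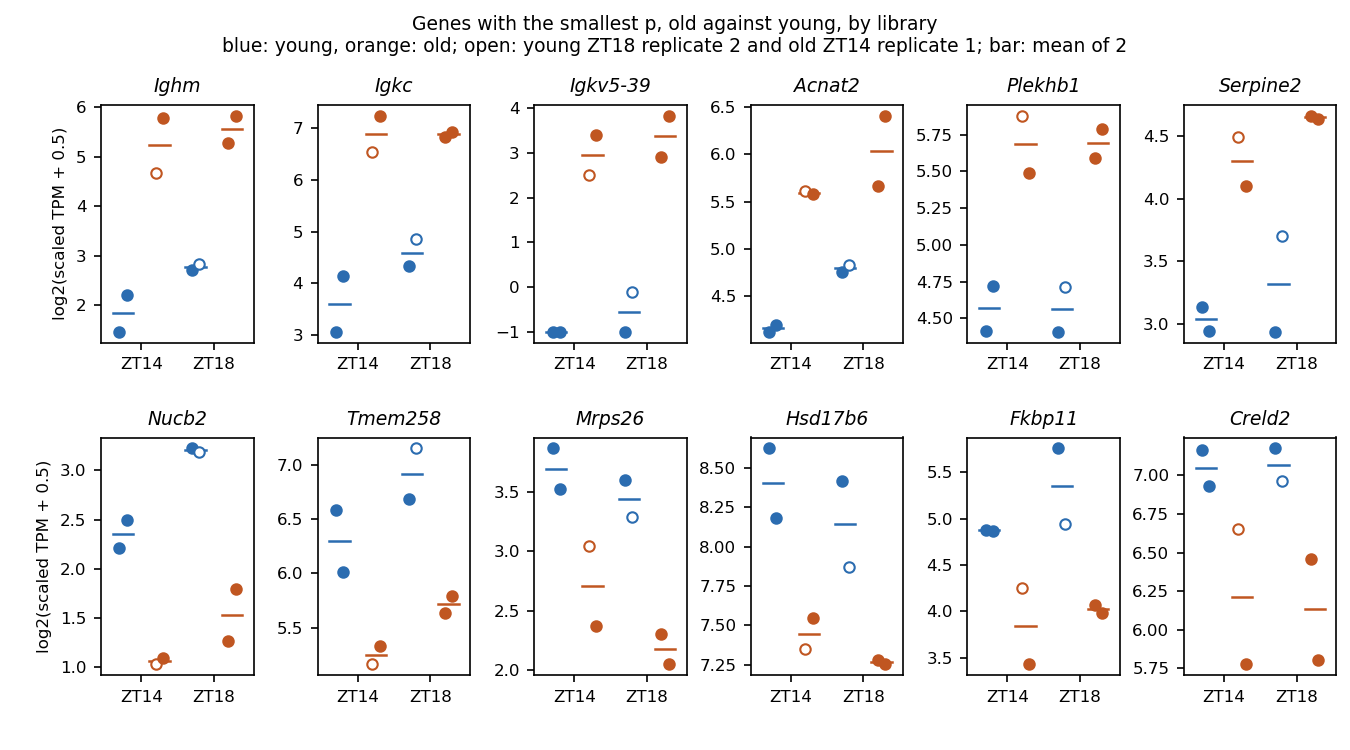
Levels of 12 genes in each library of the early night as log2(scaled TPM + 0.5), young in blue and old in orange, with bars at the mean of 2 libraries and open circles for young ZT18 replicate 2 and old ZT14 replicate 1. Old and young libraries do not overlap within either time in any of the 12 panels; of these genes Ighm, Igkc and Igkv5-39 passed the threshold.

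The immunoglobulin difference was not particular to these hours. At the other 4 times Ighm differed by 2.49 ± 0.38 (log2), Igkc by 2.61 ± 0.34 and Igkv5-39 by 3.33 ± 0.30, each past the threshold there as well (limma, adjusted p = 0.00278, 0.000953 and 7.02e-05). Among 17 plasma cell and immunoglobulin genes, 12 were tested. Of these 11 were positive, with a median of 1.88 (2.25 at ZT14 and 1.67 at ZT18), and without the 2 doubted libraries 11 were positive with a median of 2.33. At an unadjusted p under 0.05, 8 were higher and 1 lower, beside a background of 3.21% and 3.92%. The member on the lower side differed by -1.30. Without the doubted libraries 9 were higher and 1 lower, beside 5.5% and 7.63%. The heavy chain Ighg2c had 0.798, 0.981, 2.71 and 3.47 scaled TPM in young and 8.42, 17.7, 15.2 and 8.94 in old libraries, short of the threshold (2.48 ± 0.36, limma adjusted p = 0.084). Ighg2b differed by 1.89 ± 0.31 (adjusted p = 0.129 in the same limma fit). Summed over the list, the level was 115 to 198 scaled TPM in young and 265 to 422 in old libraries. None of 7 B cell markers reached the level needed for testing, and the highest of them was Cd79b at 1.70 scaled TPM. Of the plasma cell genes, Mzb1 peaked at 1.06 and Tnfrsf17 was listed at 0. In bulk tissue more cells of a type and more RNA per cell cannot be told apart.

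Beyond these 5 genes none with a higher level in old liver passed the threshold, and several came close. Acnat2, an acyltransferase of fatty acid conjugation in peroxisomes, had 17, 17.9, 26.5 and 28 scaled TPM in young and 48.3, 47.3, 50.3 and 84.4 in old libraries (1.34 ± 0.17, limma adjusted p = 0.0569). With the replicate number as a block, as the correlation between same-numbered libraries allows, limma's adjusted p for Acnat2 was 0.0453. The blocked fit called 8 genes higher (0.0658%) and 2 lower (0.0165%), all 5 of the calls above among them. Plekhb1, which encodes a membrane-bound protein with a pleckstrin homology domain, had 20.7 to 25.9 scaled TPM in young and 44.4 to 58.4 in old libraries. Serpine2, an inhibitor of serine proteases, had 7.15 to 12.5 in young and 16.7 to 24.8 in old libraries. The differences of these genes were 1.12 ± 0.15 and 1.30 ± 0.19 (limma, adjusted p = 0.0666 and 0.0897). At the other times they were 1.02 and 1.45.

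Lsm8, a subunit of the ring that binds U6 RNA in splicing, had 2.46 to 4.43 scaled TPM in young and 7.37 to 11.3 in old libraries (1.40 ± 0.21, limma adjusted p = 0.106). Pcif1, the methyltransferase of the mRNA cap-adjacent adenosine, had 3.66 to 6.25 in young and 8.30 to 10.5 in old libraries (0.94 ± 0.15, limma adjusted p = 0.129). Pcif1 overlaps Zfp335 on the opposite strand. Fitm1, which promotes the storage of fat in droplets, had 34.4, 21.1, 26.0 and 21.5 in young and 67.1, 44.2, 71.4 and 59.1 in old libraries. Its difference of 1.22 ± 0.21 passed with the block (limma, adjusted p = 0.146 without it and 0.0453 with it). Among the 18 tested genes of lipid droplets and fatty acid uptake, 12 were positive with a median of 0.11 (12 and 0.07 without the doubted libraries). At an unadjusted p under 0.05, 3 were higher and 1 lower, beside 3.21% and 3.92%. Without the doubted libraries 3 were higher and 3 lower, beside 5.5% and 7.63%. Summed over this list, the level was lower in old libraries, at 12572 to 15629 scaled TPM against 16642 to 25182 in young. Cidec, a droplet protein that enlarges lipid droplets, had 0.284 to 1.0 scaled TPM in young and 1.96 to 6.30 in old libraries (1.93 ± 0.31, limma adjusted p = 0.119). The fatty acid transporter Cd36 had 15.2 to 22.6 in young and 25.8 to 34.6 in old libraries. Fabp4, a fatty acid carrier of adipocytes and macrophages, lay the other way, at 17.5 to 26.9 in young and 9.68 to 15.3 in old libraries.

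No gene fell at the threshold with all 8 libraries and no block. The smallest p on that side was that of Nucb2, the precursor of nesfatin and a calcium-binding protein of the secretory pathway. It had 4.13, 5.14, 8.85 and 8.63 scaled TPM in young and 1.55, 1.64, 1.91 and 2.98 in old libraries (-1.48 ± 0.19, limma adjusted p = 0.0569). All old values lay below all young ones, and with the replicate block Nucb2 passed (limma, adjusted p = 0.0453). Mrps26, a subunit of the mitochondrial ribosome, had 9.26 to 14.1 in young and 3.63 to 7.74 in old libraries (-1.13 ± 0.20). Its adjusted p in limma was 0.144 without and 0.0491 with the block.

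Tmem258, a subunit of the oligosaccharyltransferase that attaches sugar chains to proteins in the ER, had 95.6, 63.9, 103 and 142 scaled TPM in young and 35.3, 39.7, 49.3 and 55.0 in old libraries. The log2 difference was -1.13 ± 0.17 (limma, adjusted p = 0.106), against 0.01 at the other times. Tmem258 overlaps Fen1 on the opposite strand, and whether the counting used strand is not given in the sources used here. Fkbp11, a proline isomerase of the ER, had 28.9, 28.8, 53.6 and 30.2 in young and 18.5, 10.3, 16.2 and 15.4 in old libraries (-1.18 ± 0.23, limma adjusted p = 0.18). Without the 2 doubted libraries Fkbp11 fell by 1.59 ± 0.16 (log2; limma, adjusted p = 0.0319).

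Further genes low in old liver included enzymes of hormone and amine metabolism. Hsd17b6, a dehydrogenase of steroids and retinol, had 394, 289.6, 341 and 233 scaled TPM in young and 163, 186, 155 and 152 in old libraries (-0.92 ± 0.17, limma adjusted p = 0.155). Ddc, the decarboxylase that makes dopamine and serotonin, had 47.0 to 119 in young and 28.4 to 66.4 in old libraries, with old below young within each time (-0.78 ± 0.14, limma adjusted p = 0.146). Nrep, a small protein of wound repair and neuronal regeneration, had 32.8 to 83.2 in young and 17.9 to 33 in old libraries (-1.10 ± 0.17). Tceal8 differed by -1.37, Sntg2 by -1.06, Car2 by -0.86 and Zfyve19 by -0.70 (log2), each short of the threshold. Zfyve19 overlaps Dnajc17 on the opposite strand.

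The other 3 genes called lower without the doubted libraries belong to families of near-identical copies, so their values are uncertain. Cyp3a16, a cytochrome P450, had 96.5, 78.4 and 85.8 scaled TPM in 3 young libraries and was listed at 0 in young ZT18 replicate 2 and in all 4 old libraries. Mup11, a major urinary protein, had 2239, 867, 2714 and 28.6 in young and 23.7 to 55.5 in old libraries. Mup4 had 21.2 to 49.6 in young libraries, and was at 20.5 in old ZT14 replicate 1 and listed at 0 in the other 3. In Cyp3a16 and Mup11, young ZT18 replicate 2 lay with the old libraries.

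The remaining call without these libraries, Nme2, a nucleoside diphosphate kinase, shows the same kind of split. It had 2.45, 9.16, 2.88 and 428 scaled TPM in young and 304 to 415 in old libraries. The overlapping model Gm20390 on the same strand had 389, 292, 481 and 0 in young and 0 to 11.5 in old libraries. The sum of both was 391, 301, 483 and 428 in young and 404, 311, 415 and 365 in old libraries, so the ages overlapped once the 2 models were added.

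Genes of the unfolded protein response and of ER folding lay mostly on the low side in old liver. With all 8 libraries and no block none of them passed the threshold, and Fkbp11 and Nucb2, described above, are members of the list. Of 28 genes in the list, 27 were tested. Of these 23 were negative, with a median log2 difference of -0.33 against -0.01 over all genes, and the median was -0.34 at ZT14 and -0.31 at ZT18. At an unadjusted p under 0.05, 13 of 27 were lower and 0 higher, beside a background of 3.92% lower. In 11 of 27 all old libraries lay below the young ones within each time, against 4.09% of all genes. Summed over the list the level was 4496 to 5647 scaled TPM in young and 3366 to 4581 in old libraries. The list was chosen with earlier results of these data known, so its count is a description.

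Creld2, an ER protein with disulfide isomerase activity, had 143, 122, 144 and 124 scaled TPM in young and 100.04, 54.3, 87.4 and 55.4 in old libraries. All old values lay below all young ones (-0.89 ± 0.22, limma adjusted p = 0.389). Sdf2l1, a partner of ER chaperones, had 111 and 80.5 at ZT14 and 188 and 117 at ZT18 in young liver, and 56.1 and 37.9 at ZT14 and 117 and 53.3 at ZT18 in old liver (-0.97 ± 0.28). Derl3, which carries misfolded proteins out of the ER for degradation, had 2.07 and 3.38 at ZT14 and 12.7 and 11.1 at ZT18 in young liver. In old liver Derl3 had 1.02 and 2.15 at ZT14 and 3.13 and 2.36 at ZT18 (-1.30 ± 0.32). The ages overlapped at ZT14 and were apart at ZT18. The ER form of HSP90, Hsp90b1, had 657, 689.7, 1039 and 945 in young and 657, 429, 701 and 709 in old libraries (-0.42 ± 0.17). Of the disulfide isomerases, Pdia6 differed by -0.47 ± 0.15 and Pdia4 by -0.41 ± 0.13. Syvn1, the ubiquitin ligase of ER degradation, differed by -0.56, the secreted ER stress protein Manf by -0.50, and Ddit3 (CHOP), a transcription factor of the PERK branch, by -0.65. Manf, Syvn1, Ddit3 and Hsp90b1 overlap other gene models, which adds uncertainty to their values. Hspa5 (BiP), the main ER chaperone, had 412, 790.1, 497 and 458 in young and 816, 300.3, 386 and 387 in old libraries. Its ages overlapped at ZT14, and at ZT18 both old values lay below both young ones.

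Without the 2 doubted libraries the median of the list was -0.41, with 12 of its members lower (7.63% of all genes in that fit) and 0 higher at an unadjusted p under 0.05. On the deposited TPM without scaling, where the median of all genes moved to 0.22, the list's median was -0.08, which is -0.30 relative to all genes, and 5 members were lower (0.821% of all genes in that fit). The scaling factors were 1.18 and 1.23 in the old ZT14 libraries and 0.828 and 1.02 in the young ZT14 libraries. The low mitochondrial share of the old ZT14 libraries moves with the age groups at that time, and its part in the list's difference was not tested. At ZT18, where mitochondrial RNA was 13.3% to 15.5% of TPM in all 4 libraries, the median was -0.31.

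ATF6 and its partners act through the ER stress response element, a CCAAT box and a CCACG box set apart by a fixed spacer. It was searched as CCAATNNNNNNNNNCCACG, on both strands, in the 250 bases before the start of each gene (RefSeq, GRCm38.p6), and overlaps between matches were allowed. It was found in 9 of the 25 list genes with a promoter in the table (36%) and in 35 of 27025 genes in all (0.13%). Since the list holds known targets of this response, these shares describe it. Windows of 4 members are shown with the element in capitals because they hold the sequence through which this response is known to act. In Creld2, whose ages did not overlap, and Derl3, whose ages were apart at ZT18 alone, the element lies on the reverse strand. In Hspa5, whose ages were likewise apart at ZT18 alone, and in Pdia6 it lies on the forward strand. They lie at chr15:88819500-88819558 (Creld2), chr10:75893222-75893280 (Derl3), chr2:34772005-34772063 (Hspa5) and chr12:17266471-17266529 (Pdia6), all plus strand, written 5′ to 3′.
Creld2: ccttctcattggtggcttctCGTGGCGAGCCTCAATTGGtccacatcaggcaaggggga
Derl3: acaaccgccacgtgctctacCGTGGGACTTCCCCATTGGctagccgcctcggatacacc
Hspa5: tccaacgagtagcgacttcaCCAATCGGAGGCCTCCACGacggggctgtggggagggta
Pdia6: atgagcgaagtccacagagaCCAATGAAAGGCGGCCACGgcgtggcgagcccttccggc
The element lies 126 bases before the start in Creld2, 156 in Derl3, 65 in Hspa5 and 98 in Pdia6. Of the 9 genes with the element, Creld2, Derl3, Hsp90b1, Pdia6, Syvn1 and Dnajc3 were lower in old liver at an unadjusted p under 0.05. Hspa5, Calr and Canx were not. In the whole list 13 of 27 tested members were lower at that level, beside 3.92% of all genes. Whether the element goes with the difference was not tested. A match is a description of the sequence and not a measured binding site.

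Immediate early genes, which respond within minutes to growth factors and stress, lay on the high side in old liver. Of 21 in the list, 17 were tested and all 17 were positive, with a median of 0.58, and 6 were higher at an unadjusted p under 0.05 beside a background of 3.21%. Junb, a subunit of the AP-1 factor, had 3.24, 3.30, 3.45 and 3.73 scaled TPM in young and 7.79, 13.4, 5.50 and 31.4 in old libraries (1.63 ± 0.45, limma adjusted p = 0.456). Ier2, a nuclear protein of this class, had 8.51 to 11.4 in young and 14.5 to 41.8 in old libraries (1.06 ± 0.29). The growth arrest gene Gadd45g differed by 1.35 ± 0.38, and Myc, a growth-promoting factor, by 1.05 ± 0.40. Part of this list was high in replicate 2 of the old groups alone. Fos, the partner of Jun proteins in AP-1, had 0.229 to 0.541 in young libraries, 0.432 and 0.384 in old replicate 1 at ZT14 and ZT18, and 14.8 and 69.6 in old replicate 2. Egr1 likewise had 0.228 and 1.81 in old replicate 1 and 8.97 and 43.6 in old replicate 2. Summed over the list, the level was 103 to 110 scaled TPM in young and 123 to 421 in old libraries. With the 2 doubted libraries left out 15 of 17 were positive with a median of 0.75, and 5 were higher at an unadjusted p under 0.05 (5.5% of all genes in that fit). With young ZT18 replicate 2 alone left out 14 of 17 were positive, with a median of 0.53.

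Genes induced by glucocorticoids, by fasting and by interleukin 6 also had members on the high side, none past the threshold. Of 16 tested glucocorticoid-induced genes, 14 were positive with a median of 0.44, and 4 were higher at an unadjusted p under 0.05, beside a background of 3.21%. Leaving out the doubted libraries, 13 of 16 were positive with a median of 0.54, and 3 were higher beside 5.5%. Zbtb16, a zinc finger repressor, had 2.37, 3.97, 0.862 and 1.49 scaled TPM in young and 9.0, 5.19, 3.41 and 7.27 in old libraries (1.39 ± 0.32, limma adjusted p = 0.313). The cell cycle inhibitor Cdkn1a differed by 1.12, the inhibitor of EGF receptor signalling Errfi1 by 0.60, and the Krüppel-like factor Klf9 by 0.49. Of 18 genes of gluconeogenesis and fasting, 15 were positive with a median of 0.39, and Foxo1, Foxo3 and Irs2, of the insulin pathway, differed by 0.45, 0.57 and 0.72. With the doubted libraries left out 16 of these 18 were positive, with a median of 0.60. Pck1, the rate-limiting enzyme of gluconeogenesis, spanned 81.0 to 338 in young and 102 to 508 in old libraries, and the ages overlapped (1.12 ± 0.55). Of 16 genes of interleukin 6, interleukin 1 and STAT3 signalling, 10 were positive and 6 negative with a median of 0.08, and 4 were higher at an unadjusted p under 0.05, beside 3.21%. The fit of 6 libraries gave 11 positive, a median of 0.10 and 5 higher, beside 5.5%. Among the 4 the transcription factor Cebpb had 25.6 to 28.4 in young and 32.0 to 53.9 in old libraries (0.69 ± 0.17, limma adjusted p = 0.371). Cebpb overlaps Tmem189 on the opposite strand. Socs3, the feedback inhibitor, differed by 0.94 and the receptor subunit Il6ra by 0.76. Of 12 chemokines tested 7 were positive with a median of 0.06, and at an unadjusted p under 0.05 there was 1 higher and 2 lower, beside 3.21% and 3.92%. In the fit of 6 libraries 6 were positive, with a median of 0.02. The one on the higher side, Cxcl1, had 3.61 to 6.25 in young and 8.5 to 41.6 in old libraries (1.76 ± 0.49). On the lower side Ccl24, a chemokine for eosinophils, had 1.60 to 4.80 in young and 1.17 to 2.72 in old libraries (-0.85).

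Genes that are higher in male than in female mouse liver lay on the low side in old libraries. Of 21 tested, 17 were negative with a median of -0.32, and at an unadjusted p under 0.05 there were 10 lower and 2 higher, beside a background of 3.92% and 3.21%. Mup21, a major urinary protein, had 5684, 3819.8, 5526 and 4272 scaled TPM in young and 2170.4, 2237, 3938 and 2874 in old libraries (-0.81 ± 0.23, limma adjusted p = 0.466). The fatty acid hydroxylase Cyp4a12a had 174 to 261 in young and 117 to 175 in old libraries (-0.68 ± 0.19). The steroid dehydrogenase Hsd3b5 differed by -0.67 ± 0.21. Mup12, at 5.55 to 10.6 in young and 8.73 to 19.3 in old libraries, and Elovl3 lay the other way, by 0.77 and 0.51. Mup21 and Mup12 belong to the same family as Mup11 and Mup4, which adds uncertainty to their values. For 2 of the 21 genes in the list the 24 libraries fell into 2 levels, apart by at least 2 on the log2 scale. Leaving out the 2 doubted libraries gave a median of -0.44, with 8 lower and 1 higher, beside 7.63% and 5.5%. Without scaling the median was -0.07 with that of all genes at 0.22, which is -0.30 relative to all genes. With quantile normalization it was -0.13, and 11 of 21 were negative.

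Of 22 genes of the female-biased list, 11 were tested and 5 were positive (7 without the doubted libraries), with a median of -0.01. At an unadjusted p under 0.05, 4 were higher and 2 lower, beside 3.21% and 3.92%. Without the doubted libraries the median was 0.22, with 3 higher and 3 lower, beside 5.5% and 7.63%. The differences in this list ran from -5.58 to 2.78, and 2 of the 11 genes fell into 2 levels across the 24 libraries. Cyp2b9, a P450 that is high in females, had 0.601, 1.19, 0.174 and 0.321 scaled TPM in young and 11.2, 1.31, 15.6 and 6.31 in old libraries (2.78 ± 0.64, limma adjusted p = 0.334). Cyp2c40, a P450 that hydroxylates arachidonic acid, had 117, 100.1, 119.6 and 102 in young and 60.9, 55.4, 75.3 and 81.0 in old libraries (-0.70 ± 0.14, limma adjusted p = 0.213). In the growth hormone axis, which sets much of the sex bias in liver, 5 of 14 tested genes were positive and 9 negative. Their median was -0.07 (0.03 at ZT14 and 0.02 at ZT18), with 1 higher and 2 lower at an unadjusted p under 0.05, beside 3.21% and 3.92%. Without the doubted libraries 8 of 14 were positive, with a median of 0.04. In that fit 2 were higher and 0 lower, beside 5.5% and 7.63%. With all 8 libraries Stat5b differed by 0.51, Igf1 by -0.35 and Egfr by -0.66. The sex of the mice is not given in the labels.

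All 13 protein-coding genes of the mitochondrial genome were lower in old libraries, with a median of -1.13, and this difference lay at ZT14 (-2.09) rather than ZT18 (-0.13). Their sum ran from 124226 to 186246 scaled TPM in young libraries and from 26802 to 146394 in old ones, and 3 of 13 were lower at an unadjusted p under 0.05, beside 3.92%. Without both doubted libraries the median was -0.74, with 7 of 13 lower beside 7.63%. Without young ZT18 replicate 2 alone it was -1.41, with 8 lower beside 6.4%. Without old ZT14 replicate 1 alone it was -0.52, with 0 lower beside 3.65%. Subunits of the respiratory chain that are encoded in the nucleus were negative in 28 of 35, with a median of -0.25. Of cytosolic ribosomal proteins, 41 of 44 were negative, with a median of -0.19. At an unadjusted p under 0.05, 2 of 35 and 1 of 44 were lower and 0 higher, beside 3.92% lower. The nuclear subunits summed to 9867 to 14440 scaled TPM in young and 8669 to 12060 in old libraries. The ribosomal proteins summed to 12971 to 22196 in young and 11852 to 17545 in old, so the ages overlapped in both lists. On unscaled TPM the medians were 0.00 and 0.06 with all genes at 0.22, which is -0.22 and -0.17 relative to all genes. With quantile normalization they were -0.10 and -0.06, with 25 of 35 and 30 of 44 negative. Without the doubted libraries they were -0.48 and -0.51 on the scaled values. In that fit 11 of 35 and 10 of 44 were lower and 0 higher at an unadjusted p under 0.05, beside 7.63% lower.

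**Figure D2:**
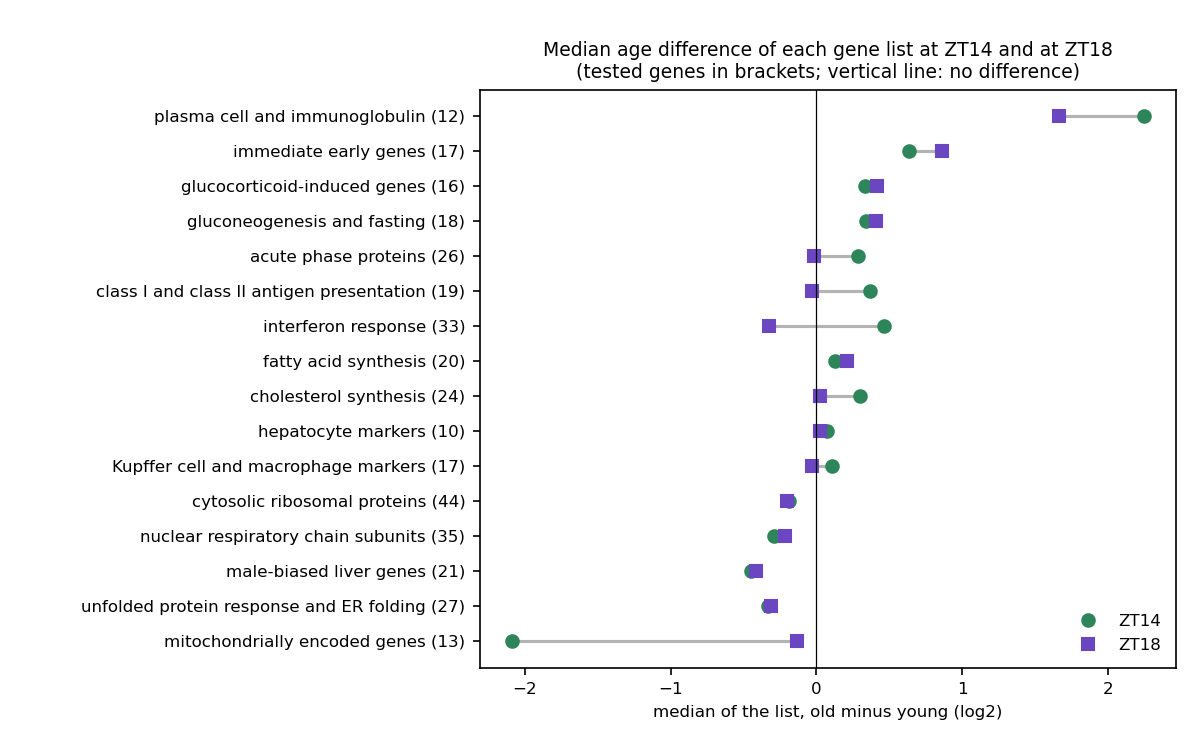
Median log2 difference, old minus young, over the tested members of 16 gene lists at ZT14 (green circles) and at ZT18 (purple squares), with the number of tested genes in brackets. The immunoglobulin list lies highest at both times (2.25 and 1.67). Mitochondrially encoded genes (-2.09 and -0.13) and interferon response genes (0.46 and -0.32) are far apart between the times.

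Whether the age difference was the same at ZT14 and ZT18 was tested as an interaction, the difference at ZT18 minus that at ZT14. It was larger at ZT18 for 1 gene (0.00823% of 12155) and smaller for 4 (0.0329%) at the adjusted threshold in limma. At an unadjusted p under 0.05 there were 131 on the higher side (1.08%) and 147 on the lower (1.21%). Without the 2 doubted libraries 3 genes passed (C1rb, Gjb1 and Nanp). With young ZT18 replicate 1 left out 34 genes passed, with old ZT18 replicate 1 left out 11, and with old ZT14 replicate 2 left out 9. C1rb, a copy of the complement protease gene C1r on chromosome 6, was listed at 0 in both young ZT14 libraries and at 40.9 and 50.7 scaled TPM at young ZT18. In old liver C1rb was at 50.2 and 53.9 at ZT14 and listed at 0 at ZT18 (limma, adjusted p = 3.24e-06). Its neighbour C1ra lay between 100.2 and 119 in all 8 libraries.

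Gjb1, connexin 32, the main gap junction protein of hepatocytes, had 1.26 and 1.92 scaled TPM at young ZT14, 434 and 409.5 at young ZT18, and 343 to 419 in the 4 old libraries (interaction -7.52 ± 0.31, limma adjusted p = 8.59e-05). Nanp, a phosphatase of sialic acid synthesis, had 6.65 and 7.90 at young ZT14, was listed at 0 at young ZT18 and at old ZT14, and had 5.81 and 6.57 at old ZT18 (limma, adjusted p = 0.000486). Scd2, a desaturase of fatty acids, had 1.27 and 2.5 at young ZT14, 10.5 and 22.7 at young ZT18, 17.1 and 18.7 at old ZT14, and 2.73 and 3.20 at old ZT18 (-5.20 ± 0.56, limma adjusted p = 0.0463). The call of Scd2 was lost without any 1 of the young ZT14 or old libraries. The predicted gene Gm7729 was the remaining call, with 0 in the young ZT14 and old ZT18 libraries and 3.82 to 4.87 in the others. Among those short of the threshold, Trex1, a DNA exonuclease that shares a locus with Atrip on the same strand, was listed at 0 in both young ZT18 libraries and had 3.44 to 7.03 in the other 6. Moxd1, a monooxygenase-like protein, had 8.62 and 9.69 scaled TPM at old ZT14 and at most 1.0 in the other 6 (interaction -3.45 ± 0.51, limma adjusted p = 0.244).

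For 4 of these 5 genes, all but Scd2, the 24 libraries of the series fell into 2 levels with no values between them. C1rb was at the low level in 11 libraries and at the high level in 13, Gjb1 in 12 and 12, and Nanp in 10 and 14. For each of the 4 genes both levels occurred within at least 1 group of a single age and time among the other hours. In the fit of all 24 libraries the interaction of C1rb and Gjb1 had an adjusted p of 1 in limma and that of Nanp 0.146. A pattern of 2 levels, defined after the data were seen as a gap of at least 2 on the log2 scale with at least 2 libraries on each side, was met by 110 of the 12155 genes (0.905%). With these genes left out 0 genes passed the threshold for the interaction in limma, and 263 had an unadjusted p under 0.05. The definition itself removes 4 of the 5 calls. Scd2 kept its unadjusted p, and its call was lost only because the adjustment was repeated over the remaining genes.

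**Figure D3:**
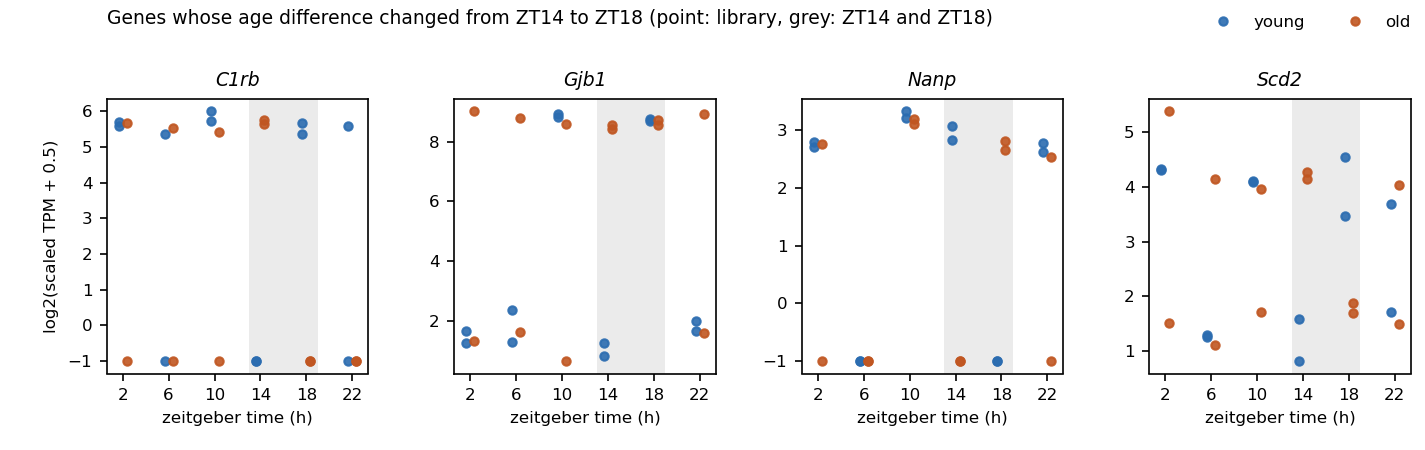
Levels of C1rb, Gjb1, Nanp and Scd2 in each of the 24 libraries over zeitgeber time as log2(scaled TPM + 0.5), young in blue and old in orange, with ZT14 and ZT18 shaded in grey. Points at -1 are libraries in which the gene is listed at 0; in C1rb, Gjb1 and Nanp libraries of the same age and time fall on both levels at some of the other times.

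Interferon response genes differed between ZT14 and ZT18 as a list, with none past the threshold. Of 33 tested, the median age difference was 0.46 at ZT14 and -0.32 at ZT18. The interaction had a median of -0.94, and 10 genes were on the lower side at an unadjusted p under 0.05, beside a background of 1.21%. Dhx58 (LGP2), a sensor of viral RNA, had 2.27 and 2.43 scaled TPM at young ZT14, 6.43 and 9.55 at young ZT18, and 6.22 to 8.23 in the 4 old libraries (interaction -1.79 ± 0.36, limma adjusted p = 0.993). Isg15, a ubiquitin-like protein, had 20.8 and 8.65 at young ZT14, 21.9 and 18.1 at young ZT18, 17.7 and 21.7 at old ZT14, and 11.2 and 8.77 at old ZT18 (-1.50 ± 0.54). The interaction was -1.44 for Ifit1, which binds foreign RNA, -2.01 for the apoptosis factor Xaf1 and -2.48 for the nucleic acid sensor Zbp1. In the fit of 6 libraries 7 genes were on the lower side, beside 1.22%, with a median of -0.81.

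The early night was next set against the other 4 times, as the mean age difference at ZT14 and ZT18 minus that at ZT2, ZT6, ZT10 and ZT22, in a fit of all 24 libraries and 12234 genes. At the adjusted threshold in limma 1 gene was higher (0.00817%) and 1 lower (0.00817%). At an unadjusted p under 0.05 there were 226 higher (1.85%) and 283 lower (2.31%). The count at the adjusted threshold was 31 without young ZT18 replicate 1, 13 without old ZT14 replicate 2, 6 without old ZT18 replicate 1 and 1 without young ZT14 replicate 1. The gene on the higher side was Rab11b, a small GTPase of recycling endosomes. Its level in young liver was 4.29, 7.41, 5.29 and 5.68 scaled TPM in the early night and 11.3 to 21.9 at the other times. In old liver it was 23.7, 16.2, 13.7 and 16.4 in the early night and 10.2 to 18.5 at the other times. The young early night libraries thus lay below all 20 others, and the difference was 1.85 ± 0.23 (log2; limma, adjusted p = 0.0075). Without the 2 doubted libraries it was 1.74, short of the threshold (limma, adjusted p = 0.083). Rab11b overlaps the model Gm17251 on the opposite strand.

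The gene on the lower side, the predicted gene Gm15832, is outside the rule for naming and is named because it is the only one. It had 25.2 and 18 scaled TPM at young ZT18 and at most 1.48 in the other 22 libraries (-2.31 ± 0.32, limma adjusted p = 0.0145). It overlaps Rnf149 on the same strand, which had 33.3 and 29.9 in those 2 libraries and 45.8 to 50.8 in the other 6 of the early night. The sum of both models was 58.4 and 48.0 at young ZT18 and 47.1 to 52.3 in the other 6. The ages thus overlapped once the 2 models were added. Gm15832 fell into 2 levels by the definition above. With genes of that pattern left out, which removes Gm15832 itself, 0 genes were lower at the adjusted threshold and 1 was higher. The call of Gm15832 was lost without young ZT14 replicate 1 or without old ZT18 replicate 2 (limma, adjusted p = 0.0968 and 0.0645).

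Elovl3, an elongase of very long fatty acids with a strong daily rhythm, was next in order of p. It had 219 and 214 scaled TPM at young ZT18 and 379.7 and 439 at old ZT18, but 61.2 and 82.3 at young ZT10 and 36.4 and 27.6 at old ZT10 (0.88 ± 0.17, limma adjusted p = 0.261). Mbtd1, a chromatin reader, differed by 1.33 ± 0.25, the histidine and peptide transporter Slc15a4 by 1.06 and the diacylglycerol kinase Dgkz by 0.81. Slc15a4 overlaps Glt1d1 on the opposite strand, which had 9.79 to 24.8 scaled TPM in the early night and adds uncertainty to its value. On the lower side Derl3 differed by -1.56 ± 0.36 and Tmem258 by -1.14 ± 0.27, each at a limma adjusted p of 0.699. Rpp40, a subunit of ribonuclease P, had 10.5 and 12.6 at young ZT18 and 2.20 to 4.48 in the other 6 libraries of the early night (-1.09 ± 0.24).

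**Figure D4:**
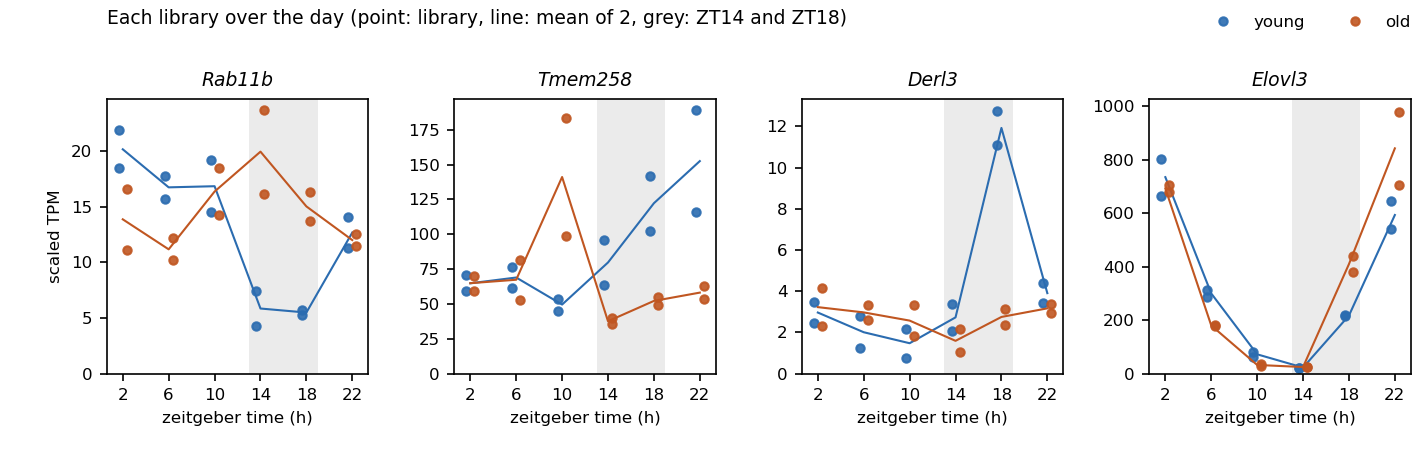
Scaled TPM of Rab11b, Tmem258, Derl3 and Elovl3 in each of the 24 libraries over zeitgeber time, young in blue and old in orange, with lines through the means of 2 libraries and ZT14 and ZT18 shaded in grey. Young Rab11b is at 4.29 to 7.41 in the shaded hours and at 11.3 or more at the other times, and Derl3 reaches 11.1 and 12.7 at young ZT18 only.

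For ER folding genes the median age difference was -0.33 in the early night and -0.01 at the other times. In the test of early night minus other times 8 of 27 members were on the lower side at an unadjusted p under 0.05 and 0 on the higher side, with a background of 2.31% lower. Besides Derl3 these were Creld2 (-0.77), Sdf2l1 (-1.11), Nucb2 (-0.92), Dnajb11 (-0.39), Hsp90b1 (-0.44), Pdia4 (-0.43) and Pdia6 (-0.47). Creld2 in young liver was 122 to 144 scaled TPM in the early night and 14.9 to 76.3 at other times. In old liver it was 54.3 to 100.04 in the early night and 15.7 to 55.0 at other times. Without the 2 doubted libraries 8 of 27 were on the lower side and 0 on the higher, beside 3.52% lower. None of the 27 passed the adjusted threshold with all libraries.

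Genes of fatty acid oxidation lay the other way. Of 28 genes tested, 20 were positive in the early night with a median of 0.10, while the median at the other times was -0.22. In the test of the difference 10 of 28 were on the higher side at an unadjusted p under 0.05 and 0 on the lower, with a background of 1.85%, and none passed the adjusted threshold. Leaving out the doubted libraries, 18 of 28 were positive in the early night with a median of 0.11, and in the test of the difference 6 were on the higher side and 0 on the lower, beside 3.48% higher. Acot1, a cytosolic acyl-CoA thioesterase, had 19.3 to 29.1 scaled TPM in young and 14.9 to 28 in old libraries of the early night (-0.14), but 17.5 to 33 in young and 5.50 to 22.8 in old libraries of the other times (-1.03). The fatty acid hydroxylase Cyp4a10 differed by -0.69 in the early night and by -1.63 at the other times, Cyp4a14 by 0.04 and -1.29, and Cyp4a31 by -0.47 and -1.89. Fgf21, a hormone of fasting made by the liver, differed by 0.76 and -1.15.

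Acute phase proteins, which the liver secretes in inflammation, showed a smaller age difference in the early night than at the other times. Of 26 tested, 19 were positive in the early night with a median of 0.19, and the median was 0.62 at the other times. Without young ZT18 replicate 2 15 of 26 were positive with a median of 0.07, and without both doubted libraries 14 were positive with a median of 0.02. In the test of the difference 10 of 26 were on the lower side at an unadjusted p under 0.05 and 0 on the higher, beside 2.31% lower, with none past the adjusted threshold. Without both doubted libraries it was 11 and 0, beside 3.52% lower. Lcn2, an iron-scavenging protein of the acute phase, had 2.5 to 11.2 scaled TPM in young and 6.40 to 36.1 in old libraries of the early night. At the other times it had 3.13 to 8.54 in young and 6.93 to 668 in old libraries, with 72.0 at old ZT2 replicate 1, 122 and 139 at old ZT6, and 668 and 249 at old ZT10. Saa2, a serum amyloid protein, was at 26.0 to 124 in young and 38.8 to 151 in old libraries of the early night, and reached 8234 at old ZT10 replicate 1. The high values thus lay in 5 old libraries of the other times, and whether the list's difference rests on them was not tested.

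**Figure D5:**
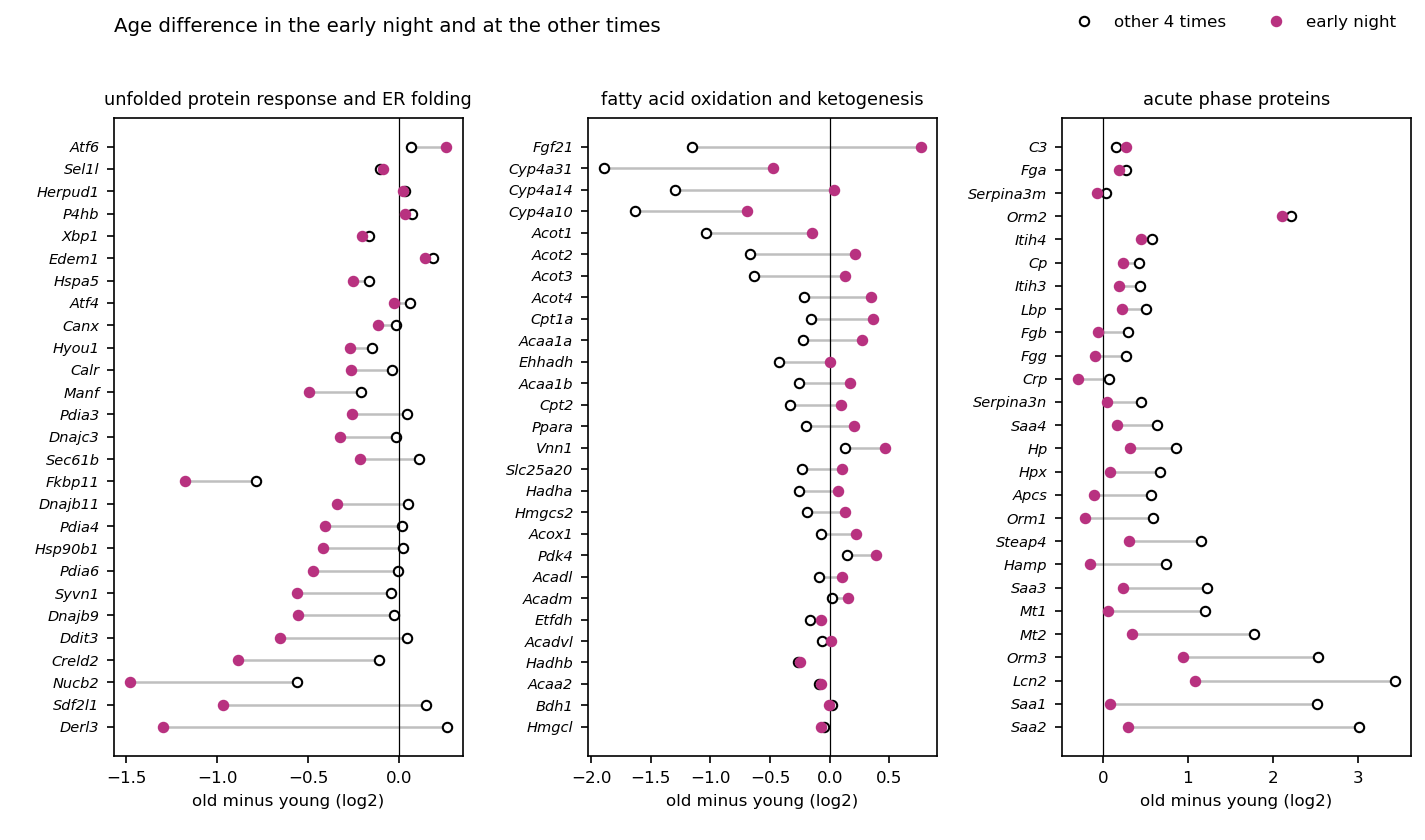
Log2 difference, old minus young, of each tested member of 3 gene lists in the early night (filled circles) and at the other 4 times (open circles), with a line joining the values of a gene. Medians were -0.33 and -0.01 for ER folding genes, 0.10 and -0.22 for fatty acid oxidation, and 0.19 and 0.62 for acute phase proteins.

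Among resident cells of the liver, the 17 markers of Kupffer cells and macrophages had a median of 0.04, with 10 positive (0.02 and 9 without the doubted libraries). Marco, a scavenger receptor of these cells, stood out from that list. It had 7.20 and 3.46 scaled TPM at young ZT14, 11.8 and 5.51 at young ZT18, 37.4 and 32.0 at old ZT14, and 10.9 and 19.8 at old ZT18 (1.75 ± 0.44, limma adjusted p = 0.376). The ages were apart at ZT14, and old ZT18 replicate 1 lay below young ZT18 replicate 1. The 10 hepatocyte markers had a median of 0.07 (-0.05 without the doubted libraries) and 0 of them were higher or lower at an unadjusted p under 0.05. The 17 tested genes of the core clock and its output had a median of 0.05 (0.19 without the doubted libraries), again with 0 past that level. The 19 acinar markers had a median of -1.81, and 0 of them were higher or lower at an unadjusted p under 0.05. Without the doubted libraries only 1 of them reached the level needed for testing.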

How the data were processed

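Per the labels, reads came from strand-specific oligo-dT libraries of frozen liver; per the submitters' processing notes, HISAT2, StringTie and the GRCm38 build were used. The authors deposited 1 table per library with TPM, FPKM and coverage (signal) for 43629 gene identifiers. TPM, which the authors scaled to sum to 1e+06, was used. The deposited FPKM values were not used, and the deposited coverage served only to estimate reads. TPM are not counts, so no count model was fitted. Entries of 1 gene identifier were summed, and libraries were scaled by the median of ratios over 13270 genes above 0 in all 24 libraries. Genes with a mean of at least 1 scaled TPM over the libraries in a fit were tested by limma 3.58.1 (R 4.3.3) with a trend, on log2(scaled TPM + 0.5), adjusted by Benjamini-Hochberg over all genes tested. Fits had 5 (age), 4 (4 groups) and 12 (12 groups) residual degrees of freedom, and were tested on simulated data. Error values are standard errors. With 2 libraries a group, precision rests on the moderated spread.

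Members and gene lists were chosen with earlier results of these data known. Named genes are those past the threshold, with at least 5 scaled TPM in the higher age, then those with the smallest p up to 12 in each direction. For each of the 2 tests of a difference they are the 6 with the smallest p in each direction, and at most 5 per list in order of p, with others named to show contrasts. The labels do not say what a replicate number marks. Deviations of same-numbered libraries correlated at 0.134 to 0.354 in all 6 pairs of groups, each above 0.1, so the block is given where it changes a call. This pairing is a reading of the data and not of the design. Promoters were taken from RefSeq (GRCm38.p6). Alternatives were other scalings, pseudocounts, filters, the block, a fit of all libraries, and libraries left out.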

Additional observations from a re-analysis of the deposited data

Results flagged for a closer look

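The age difference of 5 genes was not the same at ZT14 and ZT18 by the interaction in limma. The difference at ZT18 minus that at ZT14 was -13.24 (log2) for C1rb, -7.52 for Gjb1, 7.69 for Nanp, -6.61 for Gm7729 and -5.20 for Scd2. The values for C1rb, Nanp and Gm7729 set groups listed at 0 against groups with a level, so their size depends on the added 0.5. For 4 of the 5 genes, all but Scd2, the 24 libraries fell into 2 levels. With genes of that pattern left out, 0 genes passed for the interaction. This removes the 4 genes by definition, and Scd2 was lost only through the repeated adjustment. The age difference of 2 genes was not the same in the early night and at the other times, by 1.85 for Rab11b and -2.31 for Gm15832. Gm15832 likewise fell into 2 levels. Groups of 2 libraries are too small to test for a library that stands apart.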

How the results depend on the processing

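With all 8 libraries and the settings above, 5 genes passed the threshold for age, 5 for the interaction and 2 for early night minus other times. For age the count was 10 without the 2 doubted libraries (6 higher, 4 lower), 8 on unscaled TPM (8 higher), 8 with quantile normalization (7 higher, 1 lower), 9 with a pseudocount of 0.1 (8 higher, 1 lower), 2 with a filter at 5 scaled TPM (2 higher), 24 in a fit of all 24 libraries (17 higher, 7 lower) and 10 with the replicate block (8 higher, 2 lower). Without 1 library at a time it ran from 4 to 8. For the interaction it was 3 without the doubted libraries, 11 without a filter, 2 with the filter at 5, 2 in the fit of all libraries and 0 without genes in 2 levels, an alternative chosen after seeing the data. Without 1 library it ran from 4 to 34, the most without young ZT18 replicate 1; it was 11 without old ZT18 replicate 1 and 9 without old ZT14 replicate 2. For early night minus other times it was 1 without the doubted libraries, 1 on unscaled TPM, 1 with a pseudocount of 0.1, 9 without a filter, 1 with the filter at 5 and 1 without genes in 2 levels. Without 1 library it ran from 1 to 31, the most without young ZT18 replicate 1; it was 13 without old ZT14 replicate 2, 6 without old ZT18 replicate 1 and 1 without young ZT14 replicate 1. The cause of these changes was not tested. The interaction and the early night minus other times kept 5 and 2 calls, all shared, with the replicate block.

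Unscaled TPM moved the median of all genes by 0.23 for age, -0.26 for the interaction and 0.19 for early night minus other times, and moved list medians with it. Of 948 values of named genes under the alternatives, 0 turned in direction, 26 passed the threshold newly and 30 lost it. The named genes were chosen by their p in the main fit, and most alternatives share its libraries. A change of direction was therefore unlikely from the outset. The interaction of Scd2 was past the threshold in 7 of its 19 alternatives, with an adjusted p from limma between 0.0069 without young ZT18 replicate 1 and 1 in the fit of all 24 libraries, and of 0.255 without the doubted libraries. The fits have 4 libraries of each age, and values near 0 scaled TPM rest on few reads at this depth.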

Other observations

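Several enzymes and transporters outside the groups above kept the ages apart within each time, though none passed the threshold. Gstt3, a glutathione transferase, had 22 to 30.8 scaled TPM in young and 39.1 to 53.8 in old libraries (0.73 ± 0.15, limma adjusted p = 0.205). Gstt3 overlaps Gm20441 on the same strand, at 12.2 in young ZT18 replicate 2, 15.3 in old ZT18 replicate 1 and 0 elsewhere. The sum of both models was 23.7 to 34.1 in young and 39.1 to 56.7 in old libraries. Pigr, the receptor that carries polymeric immunoglobulins across epithelia and into bile, had 326 to 396 in young and 513 to 595 in old libraries (0.56 ± 0.14, limma adjusted p = 0.371). The urea cycle enzyme Asl had 268 to 388 in young and 423 to 756 in old libraries, while Otc, which precedes it in the cycle, had 347 to 419.8 in young and 256 to 327 in old libraries. Slc39a4, a zinc importer, had 23.2 to 39.8 in young and 12.7 to 20.3 in old libraries (-0.87 ± 0.21, limma adjusted p = 0.36). Rhbg, an ammonium transporter of pericentral hepatocytes, had 3.11 to 6.24 in young and 1.06 to 2.88 in old libraries (-0.92 ± 0.20, limma adjusted p = 0.307).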
